A study of Mus musculus with 17 samples.

Results

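Metaphase II (MII) oocytes of 48-week mothers were compared with MII oocytes of 4-week mothers by RNA sequencing. The comparison takes 4 of the 17 libraries of the series: the 2 oocyte libraries of untreated 48-week females, called aged here, and the 2 of 4-week females, called young. They were chosen by their sample labels, without use of any measured value, and the oocytes of 48-week females given rapamycin were left out of the fit. All mothers were wild-type CD1 mice, an outbred stock whose animals are not genetically identical. Aged females were superovulated with 10 IU each of PMSG and hCG, and young females with 5 IU of each, so that the hormone dose and the age cannot be told apart. Each library was made from about 10 oocytes, freed of cumulus cells with hyaluronidase, through oligo-dT priming, template switching and tagmentation. The labels do not say how many mothers gave each pool or that the libraries of a group came from separate animals, and all p-values below reflect library-to-library spread alone, part of which may be technical.

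An ovulated mouse oocyte waits at metaphase of the second meiotic division until a sperm releases calcium inside it. Its genome is almost silent at this stage, so the polyadenylated RNA measured here is a store laid down during growth, which is translated, shortened at its poly(A) tail or degraded on a schedule through maturation and the first embryonic divisions. Oligo-dT libraries see a transcript only as far as its tail is long enough to be primed, so fewer copies of an RNA and a shorter tail cannot be told apart in these data. Known functions of the store are the arrest itself, the spindle, a cortical protein lattice, chromatin reprogramming after fertilisation, and the mitochondria and lipid droplets that feed the zygote.

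Libraries held 3912163 and 4414109 gene-assigned read counts in aged oocytes, against 4512942 and 8334873 in young oocytes. At least 10 counts were reached by 8693 and 8971 genes in aged libraries and by 9183 and 10350 genes in young libraries. Of 25 oocyte markers, 23 had enough counts to be tested, and many of these were at high levels in all 4 libraries. The growth factor Gdf9 stood at 9172 and 8643 CPM (read counts scaled by the normalised library size) in aged oocytes, against 6578 and 7723 CPM in young oocytes, and the linker histone H1foo at 11967 and 10324 CPM against 11840.2 and 13601 CPM. The oocyte marker Figla was low, at 2.68 and 0.923 CPM in aged oocytes, against 1.94 and 1.05 CPM in young oocytes. Oog1 had 0 counts in all 4 libraries. Markers of other cells were low. The 25 cumulus and granulosa markers summed to 60.5 and 75.9 CPM in aged oocytes, against 117 and 99.9 CPM in young oocytes, with Foxl2, Amh, Inhbb, Areg and Ereg at 0 in all 4 libraries. Most of each sum came from Cyp19a1, at 47.1 and 44.3 CPM in aged oocytes, against 79.7 and 76.5 CPM in young oocytes. The 20 immune and blood markers summed to 28.9 and 54.0 CPM in aged oocytes and to 14.04 and 16.6 CPM in young oocytes, with Cd52, Tyrobp, Cd74 and the haemoglobin genes at 0. None of the 8 tested markers of other cells passed the test described next. The 3 tested immune markers lay above 0 in log2 fold change (median 1.06) and the 4 tested cumulus markers below 0 (median -0.44). The cumulus median was 0.09 without aged library 1 and -1.18 without aged library 2. It was -0.007 without young library 1 and -0.66 without young library 2. The immune marker H2-Aa was at 4.02 and 28.6 CPM in aged oocytes, against 1.51 and 2.92 CPM in young oocytes. It passed with an alternative test, DESeq2 (adjusted p = 0.00587), but not with limma-voom (adjusted p = 0.141). Log2 CPM correlated across 9409 genes at r = 0.942 within the aged pair, 0.976 within the young pair and 0.856 to 0.902 between the groups. The first principal component, with 72.9% of the variance, separated aged from young libraries, and the second (19.1%) set aged library 1 against aged library 2.

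Aged oocytes differed from young oocytes in many genes of diverse function. Of 9409 genes tested with edgeR's quasi-likelihood F-test, 1177 passed a Benjamini-Hochberg adjusted p of 0.05, which is 12.5% of the genes. Of these, 669 (7.11%) were higher and 508 (5.4%) were lower in aged oocytes. All 1177 had no overlap between the groups, as had 5919 of all genes tested. The median log2 fold change over all genes tested, aged over young, was 0.00, with 4720 genes above 0 and 4689 below. Changes beyond 16-fold were found for 53 of the higher and 80 of the lower genes, while 61 and 45 had changed by less than 2-fold. Both young libraries had 0 counts for 12 of the higher genes, and both aged libraries for 26 of the lower genes. The number that passed moved with every library left out, to 1901 without aged library 1, 3554 without aged library 2, 263 without young library 1 and 306 without young library 2. Of the 1177 genes, 1088 and 1162 were among those that passed without aged library 1 and 2, and 252 and 294 among those that passed without young library 1 and 2. After a correction for GC content and length of the transcripts, described further on, 878 of the 1177 passed. Whichever library was left out, 182 genes passed, 89 of them higher and 93 lower in aged oocytes.

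**Figure D1:**
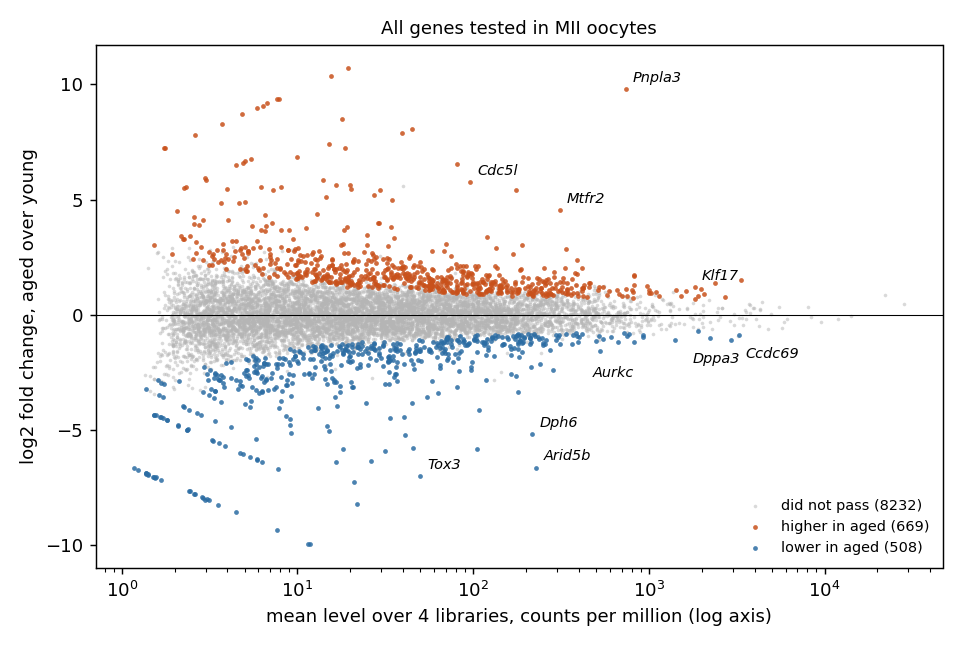
Log2 fold change of each of 9409 tested genes, aged over young oocytes (vertical axis), against its mean level over the 4 libraries in CPM (horizontal log axis). Orange points are the 669 genes higher and blue points the 508 genes lower in aged oocytes at an adjusted p of 0.05, and grey points are the 8232 genes that did not pass. Pnpla3, with a mean of 740.2 CPM, had a log2 fold change of 9.79.

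Levels of Pnpla3, Mtfr2, Arid5b and Dph6, among other genes, differed by more than 10-fold between any aged and any young library. Their proximal promoters are shown as examples, chosen with earlier results of these data known. Each is 250 bases before to 50 after a RefSeq transcription start (GRCm38.p6), given 5′ to 3′ on the strand of the gene. Capitals mark matches on either strand to the TATA box (TATAAA), the CCAAT box (CCAAT), the E-box (CACGTG) and the GC box (GGGCGG), motifs that do not overlap each other here. Pnpla3 lies at chr15:84167566-84167865 (+), Mtfr2 at chr10:20347569-20347868 (+), Arid5b at chr10:68278677-68278976 (-) and Dph6 at chr2:114654915-114655214 (-).
Pnpla3: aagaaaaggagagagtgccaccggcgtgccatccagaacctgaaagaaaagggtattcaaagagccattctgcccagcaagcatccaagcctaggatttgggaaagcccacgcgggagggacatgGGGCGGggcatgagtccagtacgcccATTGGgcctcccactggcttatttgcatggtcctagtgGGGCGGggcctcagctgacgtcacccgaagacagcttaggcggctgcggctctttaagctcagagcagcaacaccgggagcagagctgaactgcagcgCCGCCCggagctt
Mtfr2: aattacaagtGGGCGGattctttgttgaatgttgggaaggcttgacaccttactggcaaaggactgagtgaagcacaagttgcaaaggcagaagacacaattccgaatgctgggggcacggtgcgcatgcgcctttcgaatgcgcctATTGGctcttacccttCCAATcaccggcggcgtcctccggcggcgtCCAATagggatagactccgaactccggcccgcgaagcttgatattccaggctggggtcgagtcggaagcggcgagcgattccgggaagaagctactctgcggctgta
Arid5b: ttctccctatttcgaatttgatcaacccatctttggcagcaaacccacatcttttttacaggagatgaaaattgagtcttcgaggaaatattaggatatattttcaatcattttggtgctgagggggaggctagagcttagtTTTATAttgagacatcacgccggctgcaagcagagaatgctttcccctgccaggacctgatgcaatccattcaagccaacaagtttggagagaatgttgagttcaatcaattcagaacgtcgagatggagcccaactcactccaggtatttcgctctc
Dph6: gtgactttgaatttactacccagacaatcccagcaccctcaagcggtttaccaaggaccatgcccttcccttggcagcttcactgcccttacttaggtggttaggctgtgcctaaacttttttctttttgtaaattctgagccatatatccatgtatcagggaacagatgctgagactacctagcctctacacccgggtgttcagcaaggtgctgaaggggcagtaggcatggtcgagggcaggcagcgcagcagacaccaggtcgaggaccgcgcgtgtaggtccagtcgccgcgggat
The Pnpla3 window held 15 CpG dinucleotides, 1 CCAAT box and 3 GC boxes, and that of Mtfr2 24 CpG, 3 CCAAT boxes and 1 GC box. The window of Arid5b held 7 CpG and 1 TATA box on the opposite strand, and that of Dph6 11 CpG and none of the 4 motifs. Over all 32851 windows in the RefSeq table, the median was 7 CpG, and 37.4% held a CCAAT box, 35.7% a GC box, 13.6% a TATA box and 7.15% an E-box. These matches describe the letters in the window and show no binding.

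Transcripts that rose furthest in aged oocytes were led by Pnpla3, which encodes a lipase and acyltransferase of lipid droplets. Pnpla3 (GRCm38 15:84167837-84187236, protein-coding) was at 1536 and 1422 CPM in aged oocytes, against 1.30 and 1.87 CPM in young oocytes. It was thus a major transcript in both aged libraries and close to the limit of detection in both young ones. Its log2 fold change was 9.79 ± 0.32 (approximate SE, edgeR adjusted p = 2.98e-06). Mtfr2 (10:20347770-20361304), whose product promotes mitochondrial fission, was at 755 and 439.6 CPM in aged oocytes, against 21.8 and 29.2 CPM in young oocytes (log2 fold change 4.54 ± 0.34, adjusted p = 0.000341). Dbt, the core subunit of the enzyme complex that breaks down branched-chain amino acids, was at 506 and 184 CPM against 6.26 and 9.36 CPM (5.43 ± 0.53, adjusted p = 0.000776). The aged libraries differed more from each other for Dbt and Mtfr2 than for Pnpla3, and no aged value reached down to the young ones. Cdc5l (17:45391884-45433737), a core component of the spliceosome, was at 150.2 and 229 CPM in aged oocytes, against 1.73 and 4.80 CPM in young oocytes (5.76 ± 0.47, adjusted p = 0.000471). Of the 75-base words in the exons of Cdc5l, 72.2% occurred once among annotated transcripts, so reads of near-identical copies may have been lost or added.

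The other 8 genes of largest rise were between 37.2 and 233 CPM in aged oocytes and between 0.117 and 4.32 CPM in young oocytes. Dclk1, a kinase that binds microtubules, was at 96.4 and 61.4 CPM in aged oocytes, against 0.432 and 0.234 CPM in young oocytes (log2 fold change 7.90 ± 0.54). Pxdn, a peroxidase that crosslinks collagen IV, was at 117 and 62.5 CPM against 0.648 and 0.117 CPM (8.06 ± 0.65). Agbl2, a carboxypeptidase that acts on tubulin tails, was at 65.3 and 68.1 CPM against 1.94 and 2.22 CPM (4.97 ± 0.38). The remaining ones were Kcng2, a modifying subunit of voltage-gated potassium channels, Tex19.2, a germline gene linked to retrotransposon control, Rbm44, a germ-cell RNA-binding protein, Sept3, a septin, and Lrrc31. Adjusted p-values of these 8 genes ran from 0.000286 to 0.00174 by edgeR. For each of these 12 genes the higher young library stayed below the lower aged one by more than 10-fold, as the plot of the largest changes shows.

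Among the transcripts that fell furthest, Arid5b and Dph6 were well expressed in young oocytes. Arid5b (10:68092520-68278740), a DNA-binding partner of a histone demethylase, was at 6.43 and 2.77 CPM in aged oocytes, against 487 and 419 CPM in young oocytes (log2 fold change -6.64 ± 0.40, edgeR adjusted p = 0.000117). Dph6 (2:114516416-114654964), which amidates the last intermediate of diphthamide, the modified histidine of elongation factor 2, was at 10.7 and 12.2 CPM against 463 and 382 CPM (-5.20 ± 0.28, adjusted p = 0.000117). The groups stayed far apart for both genes, and their aged values were low in both libraries. Dph6 was the 1 gene that passed among 4 tested of diphthamide synthesis. Tox3 (8:90247040-90348343), an HMG-box nuclear protein, was at 0.803 and 0.692 CPM in aged oocytes, against 97.4 and 100.7 CPM in young oocytes (-7.01 ± 0.42, adjusted p = 0.000117). Inpp4a, a lipid phosphatase of the phosphoinositide pathway, was at 17.1 and 6.23 CPM against 201 and 207 CPM (-4.14 ± 0.44, adjusted p = 0.00129). Kcnk18, a background potassium channel, had 1 count in the aged libraries together and 567 in the young ones, 347-fold lower per normalised count in aged oocytes, with a counting interval of 62.0 to 1.37e+04 at the 95% level.

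The other 7 were below 8 CPM in both aged libraries and between 43.0 and 94.6 CPM in the young ones. Arntl2, a clock-related transcription factor, was at 1.07 and 2.08 CPM in aged oocytes, against 92.2 and 86.0 CPM in young oocytes (log2 fold change -5.78 ± 0.42). Got1, the cytosolic aspartate aminotransferase of the malate-aspartate shuttle, was at 2.68 and 3.00 CPM against 76.0 and 52.9 CPM (-4.49 ± 0.41). Tex15, needed for meiotic recombination and transposon silencing in the male germ line, was at 3.48 and 0.923 CPM against 65.9 and 94.6 CPM (-5.21 ± 0.54). Ptpro is a receptor tyrosine phosphatase, Cdc42ep3 an effector of the GTPase Cdc42 and Med8 a Mediator subunit. Zfp708 shares nearly all of its exonic sequence with other annotated genes (5.7% of its 75-base words were unique), so its counts are uncertain. All 24 genes named for their fold passed whichever library was left out, with DESeq2, with limma-voom and after correction for GC content and length.

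**Figure D2:**
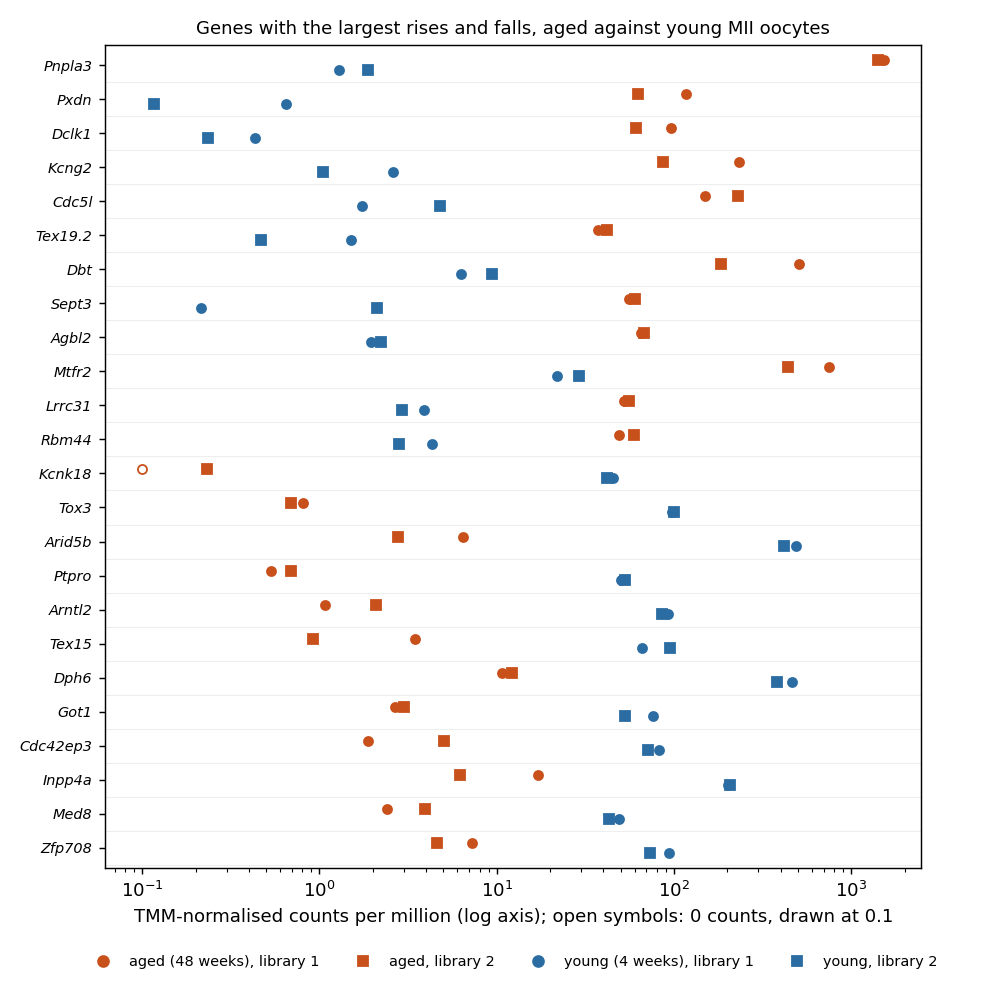
Levels in each of the 4 libraries, in CPM on a log axis, of the 12 genes with the largest rise (Pnpla3 to Rbm44) and the 12 with the largest fall (Kcnk18 to Zfp708). Orange symbols are aged and blue symbols young libraries, circles library 1 and squares library 2, and the open symbol is a count of 0 drawn at 0.1. The groups do not overlap in any row.

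The 24 genes were also read in the 3 libraries of 48-week mothers given rapamycin, which had the hormone dose of the aged group and took no part in the test. Scaled together with the 4 libraries, Pnpla3 stood at 458, 980 and 1249 CPM there, Mtfr2 at 898, 812 and 805 CPM and Cdc5l at 287, 344 and 247 CPM. Arid5b stood at 7.94, 5.30 and 6.62 CPM, Dph6 at 9.00, 11.4 and 11.9 CPM, and Tox3 at 0, 0 and 0.154 CPM. All 12 genes of largest fall were below both young libraries in all 3, and 10 of the 12 genes of largest rise were above both young libraries in all 3. The 24 genes had been picked for their distance from the same young libraries, which favours these counts, so they are not independent support. The same share over all tested genes was not computed. The other 2 genes of largest rise were Dbt and Kcng2. Dbt was at 5.30, 7.27 and 75.9 CPM in the rapamycin libraries, against 6.12 and 9.35 CPM in young libraries on the same scale. Kcng2 was at 18.0, 1.82 and 1.85 CPM, against 2.53 and 1.05 CPM. Dclk1 was also low in 1 rapamycin library, at 18.3, 1.21 and 55.7 CPM. Rapamycin library 1 was unlike the other oocyte libraries in many transcripts, so its values carry less weight. Gdf9 stood at 297 CPM there, against 5016 and 5741 CPM in rapamycin libraries 2 and 3. H1foo stood at 507 CPM, against 9919 and 10468 CPM. Tcl1 and the granulosa marker Inha went the other way, at 26064 and 76.0 CPM in rapamycin library 1. The rapamycin libraries were not compared by a test.

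Among abundant transcripts, changes were mostly near 2-fold. Klf17, a transcription factor of oocytes and early embryos, was at 2584 and 2498 CPM in aged oocytes, against 1057 and 1162 CPM in young oocytes (log2 fold change 1.20 ± 0.19, edgeR adjusted p = 0.00817). Ccdc69, a coiled-coil protein linked to the central spindle, was at 1891 and 1821 CPM against 3952 and 4010.3 CPM (-1.10 ± 0.18, adjusted p = 0.00912). Both groups were tight for these transcripts. The others that rose were Slc45a3, Nlrp4f, Pla2g4c, Padi6, Tiparp and Rnf114, by 0.83 to 1.37 on the log2 scale. Those that fell were Obox2, Dppa3, Sub1, Jag1, Meis2 and Npm1, with log2 fold changes of -0.86 to -1.19. Slc45a3 differed more than 2-fold within the aged pair, at 4766 and 2146 CPM, against 1072 and 1598 CPM in young oocytes. Of the 16 genes with the largest change in CPM, Pnpla3 included, all passed without either aged library, but 4 passed without young library 1 and 8 without young library 2. Only 47.4% of the 75-base words of Obox2 were unique, so reads may be shared with its paralogs. After the correction for GC content and length, 12 of the 16 passed, and the 4 that did not were Dppa3, Obox2, Npm1 and Slc45a3, with log2 fold changes of -0.04, -0.18, -0.28 and 0.82.

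**Figure D3:**
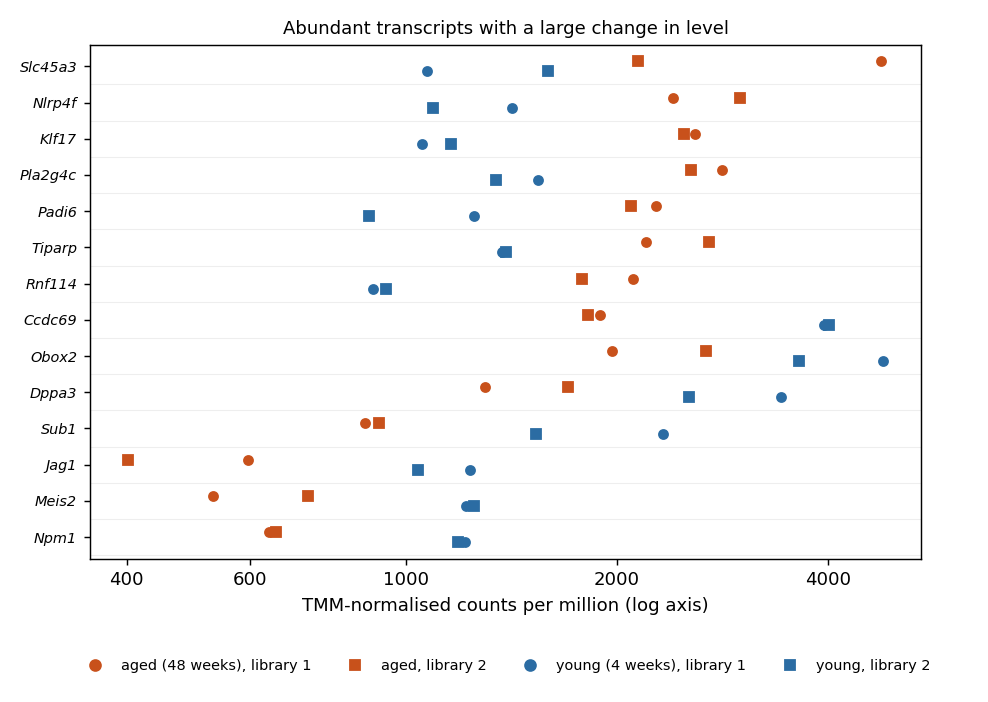
Levels in each library, in CPM on a log axis, of abundant transcripts with a large change in level apart from Pnpla3: 7 that rose (Slc45a3 to Rnf114) and 7 that fell (Ccdc69 to Npm1). Orange symbols are aged and blue symbols young libraries. Differences are near 2-fold, and the groups do not overlap.

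The functional lists below were chosen with earlier results of these data known, and hold 1504 distinct tested genes, of which 176 (11.7%) passed, close to the 12.5% of all genes. Direction and medians, beside the 7.11% higher and 5.4% lower among all genes, are given as descriptions.

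Of 37 tested maternal-effect genes, whose products the embryo needs from the egg, 5 rose and 1 fell, with a median log2 fold change of 0.26 that was 0.16 without aged library 2, 0.14 without young library 2 and 0.16 after correction for GC content and length. Padi6, a component of the cytoplasmic lattices, was at 2274 and 2098 CPM in aged oocytes, against 1250.1 and 887 CPM in young oocytes (1.03 ± 0.22, edgeR adjusted p = 0.0224). Nlrp4f, a related protein of the cortex, was at 2410 and 3002 CPM against 1417 and 1093 CPM (1.11 ± 0.22). Cdh1, the adhesion protein E-cadherin, and Zfp445, which protects imprints, rose by 1.37 and 1.51 on the log2 scale, and Dnmt1 is given with chromatin. Dppa3, which guards the maternal genome from demethylation in the zygote, was at 1295 and 1702 CPM in aged oocytes, against 3430.5 and 2538 CPM in young oocytes (-0.99 ± 0.23, adjusted p = 0.0285). Dppa3 no longer passed after correction for GC content and length (adjusted p = 0.896) or without young library 1 (adjusted p = 0.178). Of the 6 genes, 2 passed without young library 1, 1 without young library 2 and 4 after the correction.

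Of 23 tested oocyte identity genes, 3 rose and 1 fell. Pou5f1, a pluripotency factor, was at 71.5 and 43.8 CPM in aged oocytes, against 18.6 and 19.3 CPM in young oocytes (log2 fold change 1.60 ± 0.35). Ddx4, the germline helicase Vasa, was at 609 and 67.6 CPM in aged oocytes, against 49.2 and 34.2 CPM in young oocytes (3.02 ± 0.80, edgeR adjusted p = 0.0434). This difference rested on aged library 1: without it the adjusted p was 0.148, and with all 4 libraries DESeq2 gave 0.106. Without young library 1 or young library 2, Ddx4 had an adjusted p of 0.0344 and 0.0769. Of 18 tested transcription factors of the oocyte, Klf17 and Pou5f1 rose, and Obox2 and Klf4 fell, the last with 2 counts in the aged and 91 in the young libraries (27.9-fold lower, counting interval 7.49 to 233). On the egg surface, Oosp2, an oocyte-secreted protein, and the integrin subunit Itga6 fell among 16 tested genes; 1 of them passed without young library 1, 0 without young library 2 and 1 after correction for GC content and length, where Oosp2 had a log2 fold change of -0.29 in place of -1.39 and did not pass. Itga6 was at 153 and 146 CPM in aged oocytes, against 299.7 and 426 CPM in young oocytes (-1.28 ± 0.25). No gene passed among 20 in the list of oocyte-secreted factors and TGF-beta signalling. Kit, the receptor for Kit ligand, was placed in that list, at 517 and 516 CPM against 382 and 284 CPM (0.64 ± 0.23, edgeR adjusted p = 0.0979). Of the 4 identity genes, 2 passed without young library 1 and 1 without young library 2, and of the 4 transcription factors 0 and 2. Dppa3 among the identity genes and Obox2 among the transcription factors did not pass after the correction.

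The arrest at metaphase II depends on high activity of cyclin B and Cdk1 and on inhibition of the anaphase-promoting complex. Of 42 tested genes of this machinery, 6 rose and 1 fell. Fbxo43, which encodes Emi2, the inhibitor that holds the arrest, was at 505 and 432 CPM in aged oocytes, against 239.7 and 275 CPM in young oocytes (log2 fold change 0.86 ± 0.22, edgeR adjusted p = 0.0381). Ccnb3, a cyclin active in meiosis, was at 111 and 134 CPM against 61.3 and 50.9 CPM (1.13 ± 0.27). Cdk2, the kinase Pkmyt1, which inhibits Cdk1, the phosphodiesterase Pde3a, which lowers cyclic AMP at the resumption of meiosis, and Gpr3, the receptor that keeps cyclic AMP high before it, were the others that rose. Gpr3 was named because it completes the list. Ube2s, which extends ubiquitin chains for the anaphase-promoting complex, was at 24.9 and 30.0 CPM in aged oocytes, against 52.5 and 82.1 CPM in young oocytes (-1.30 ± 0.33). Of these 7 genes, 0 passed without young library 1, 0 without young library 2, 6 without aged library 1 and 6 after correction for GC content and length.

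The spindle list had 45 tested genes, of which none rose and 2 fell. Aurkc, the germ-cell Aurora kinase of the chromosomal passenger complex, was at 277 and 249.7 CPM in aged oocytes, against 785 and 795 CPM in young oocytes (-1.59 ± 0.21, edgeR adjusted p = 0.00379). It passed whichever of the 4 libraries was left out, though 56.7% of its 75-base words were unique, which leaves its counts uncertain. Spc25, of the outer kinetochore, was at 13.1 and 18.0 CPM against 41.7 and 43.0 CPM (-1.44 ± 0.33) and did not pass without young library 1, without young library 2 or after correction for GC content and length. Cohesin holds sister chromatids together from fetal life onward. Rec8, a member of the cohesin list, had 0 counts in all 4 libraries and was not tested. Of the 16 cohesin genes tested, none passed. Cdca5, the cohesin-stabilising protein sororin, came closest there, at 253 and 217 CPM in aged oocytes, against 152 and 127 CPM in young oocytes (0.75 ± 0.24, adjusted p = 0.0685). No condensin gene of 15 passed, with Ncapd3 at 0.71 ± 0.26 (adjusted p = 0.1), and none of 6 sirtuins, with Sirt3 at 1.77 ± 0.66 (adjusted p = 0.108). A p that misses the threshold does not show that these genes are unchanged.

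The oocyte cortex and its actin network place the spindle for an uneven division. Of 36 actin and cortex genes, Myo5b rose and Actr2, Fmn2 and Daam1 fell. Actr2, a core subunit of the Arp2/3 complex that nucleates branched actin, was at 147 and 137 CPM in aged oocytes, against 443 and 372 CPM in young oocytes (log2 fold change -1.52 ± 0.23, edgeR adjusted p = 0.00712). Fmn2, the formin that moves the spindle to the cortex, was at 60.0 and 112 CPM against 206 and 279 CPM (-1.49 ± 0.33, adjusted p = 0.0262). Myo5b, the myosin that moves vesicles along actin in the oocyte, was at 476 and 469.8 CPM against 170.2 and 181 CPM (1.43 ± 0.21, adjusted p = 0.00712). Of these 4, Actr2 and Fmn2 passed without young library 1, and Actr2 alone without young library 2. Among 42 tubulin genes 4 rose and none fell, with Ttll4, Tbcd and Map4 beside Agbl2, and among 26 kinesins Kif5b and Kifc3 rose. Agbl2 alone of the 4 tubulin genes passed without young library 1 and without young library 2, Tbcd did not pass without aged library 1, and Map4 did not pass after correction for GC content and length. Of the 2 kinesins, 0 passed without young library 1 and 1 without young library 2.

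Proteins that store, lengthen and destroy maternal mRNA set when each transcript is used. In the storage and cytoplasmic polyadenylation list, 5 of 39 tested genes rose and 1 fell. Eif4enif1, the cap-binding repressor 4E-T, was at 834 and 613 CPM in aged oocytes, against 309 and 313 CPM in young oocytes (log2 fold change 1.22 ± 0.23, edgeR adjusted p = 0.0151). Cpsf1 and Cpsf2, of the cleavage and polyadenylation factor, rose by 1.98 and 1.43 on the log2 scale, beside Pabpc1l, the poly(A)-binding protein of oocytes, and Igf2bp3. Ybx1, an RNA-packaging protein, was at 89.7 and 85.8 CPM in aged oocytes, against 211 and 206 CPM in young oocytes (-1.25 ± 0.23). In the deadenylation and decay list, 4 of 31 rose and none fell. Ythdf3, a reader of m6A methylation, was at 479 and 446 CPM against 214 and 227 CPM (1.07 ± 0.21), and Pabpn1l, which directs maternal mRNA decay, at 1762 and 756 CPM against 290.0 and 487 CPM (1.69 ± 0.40). None of the 6 storage genes passed without young library 1 or without young library 2, and of the 4 decay genes 0 and 1 passed. Without aged library 1, and likewise after correction for GC content and length, 3 of the 4 decay genes passed. Among 19 small RNA genes, Piwil1, Pld6, Drosha and Ddx4 rose and Asz1 fell, of which 1 passed without young library 1 and 0 without young library 2. After the correction 3 of the 5 passed, with Asz1 at a log2 fold change of -0.60 in place of -1.18 (edgeR adjusted p = 0.129) and Drosha at 1.12 in place of 1.40 (adjusted p = 0.0741).

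Genes of DNA methylation changed in both directions. Dnmt1, the maintenance methyltransferase, was at 1369 and 817 CPM in aged oocytes, against 534 and 506 CPM in young oocytes (log2 fold change 1.07 ± 0.26, edgeR adjusted p = 0.0348). Tet1, which oxidises 5-methylcytosine, was at 1.07 and 0.923 CPM against 7.56 and 9.71 CPM (-3.10 ± 0.58, adjusted p = 0.0149). Of 17 tested genes, 2 rose and 2 fell, 0 of the 4 passed without young library 1 and 1 without young library 2, and Dnmt1 and Dppa3 did not pass after correction for GC content and length. Of 46 histone modifiers 3 rose, Prmt5, Kmt2d and Kdm2b, by 0.82 to 1.497 on the log2 scale, and none of them passed without young library 1 or without young library 2, nor did Kmt2d and Kdm2b after the correction. Of 44 chromatin remodellers and histone variants, Arid5b alone passed. Among 18 imprinted genes Asb4 and Peg3 rose, and Phlda2 and Gnas fell. Asb4 was at 71.0 and 95.8 CPM in aged oocytes, against 11.7 and 21.5 CPM in young oocytes (2.31 ± 0.38, adjusted p = 0.00979). Of these 4 imprinted genes, 0 passed without young library 1 and 1 without young library 2, Phlda2 did not pass after the correction, and Peg3 did not pass with DESeq2.

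In DNA repair, 5 of 76 tested genes rose and 4 fell. Dmc1, the recombinase of meiotic recombination, had 2 counts in the aged and 100 in the young libraries, 30.6-fold lower (8.25 to 256 by counting error). Ung, which removes uracil from DNA, was at 226 and 144 CPM in aged oocytes, against 55.9 and 58.4 CPM in young oocytes (log2 fold change 1.69 ± 0.29). Mdc1, a scaffold at DNA breaks, rose by 1.66 and Ercc5, a nuclease of excision repair, by 1.29 on the log2 scale. Of the 9 genes, 0 passed without young library 1, 2 without young library 2, 8 without each aged library and 7 after correction for GC content and length. In apoptosis, the survival genes Bcl2l1 and Birc3 rose, and Casp8 and Diablo, which promote cell death, fell, among 20 tested, and none of the 4 passed without young library 1 or without young library 2, nor did Casp8 after the correction.

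Most genes of 4 large protein assemblies had log2 fold changes below 0, beside 4689 of 9409 over all genes, although few single members passed. Of 70 cytosolic ribosomal protein genes, 59 had a log2 fold change below 0 and the median was -0.64, with 7 that fell and none that rose. Of 68 nuclear genes of the respiratory chain, 60 lay below 0 (median -0.66, 3 fell, none rose). Of 63 mitochondrial ribosomal proteins, 46 lay below 0 (median -0.42, 4 fell, none rose). Of 41 proteasome subunits, 30 lay below 0 (median -0.59, 4 fell and 2 rose). The mean log2 deviation of the ribosomal list from its mean over libraries was -0.69 and -0.02 in aged libraries 1 and 2, against 0.41 and 0.29 in young libraries 1 and 2, so that aged library 2 lay between aged library 1 and the young libraries. Without aged library 1 the ribosomal median was -0.34, and without aged library 2 it was -1.17. The median of mitochondrial ribosomal proteins was -0.65 without aged library 2.

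Fold changes differed with GC content and length of the transcript across all genes. Of 5 equal classes by GC content of the longest transcript, in the highest 11.7% were higher and 2.56% lower in aged oocytes (median log2 fold change 0.46), and in the lowest 4.31% were higher and 8.40% lower (median -0.24). Of 334 genes whose longest transcript was under 1000 bases, 3.89% were higher and 15.9% lower (median -0.64). Median transcript length was 1048 bases for cytosolic ribosomal proteins, 1186 for the respiratory chain, 1955 for proteasome subunits and 2114 for mitochondrial ribosomal proteins, against 3525 bases over all genes. Median GC content of these 4 lists was 49.4% to 50.9%, against 48.3% over all genes. Length and GC content were corrected together, and the part of each in the shift of these lists was not tested. The correction held no term for group. A difference between aged and young oocytes that followed GC content or length was thus removed too, whatever its source. The smooth fit on GC content and length took up 13.7% and 1.52% of the variance of deviations in aged libraries 1 and 2, and 14.5% and 4.53% in young libraries 1 and 2. After this correction, the median was -0.26 for cytosolic ribosomal proteins, -0.28 for the respiratory chain, -0.23 for mitochondrial ribosomal proteins and -0.11 for proteasome subunits. The corrected fit called 1163 of 9162 genes, of which 878 had also passed without correction.

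**Figure D4:**
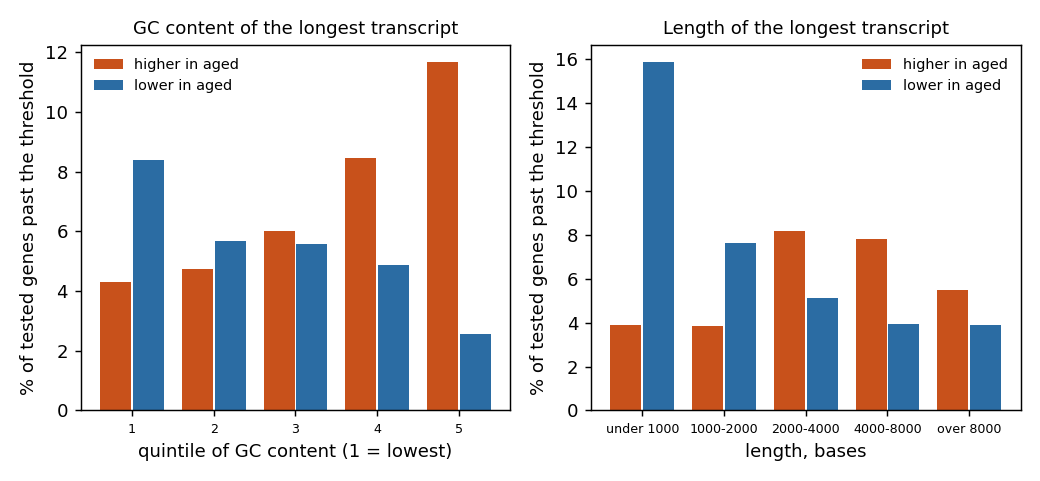
Share of tested genes that passed, in percent, higher (orange) or lower (blue) in aged oocytes, by 5 equal classes of the GC content of the longest transcript (left) and by its length in bases (right). The share of higher genes goes up with GC content, and genes under 1000 bases are more often lower than higher.

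Within these lists, Rps2, of the small ribosomal subunit, was at 15.5 and 17.3 CPM in aged oocytes, against 164 and 128 CPM in young oocytes (log2 fold change -3.15 ± 0.30, edgeR adjusted p = 0.000729). It passed whichever library was left out and after the correction, but only 64.0% of its 75-base words were unique, as ribosomal protein genes have many pseudogene copies. Of the 7 ribosomal genes, 3 passed without young library 1, 1 without young library 2 and 2 after the correction. In the respiratory chain, Ndufa12 of complex I had 0 counts in both aged libraries, against 3.67 and 3.04 CPM in young libraries, at least 8.77-fold lower against a floor of 3 counts over the group. Ndufa4 was at 41.2 and 62.5 CPM in aged oocytes, against 206 and 114 CPM in young oocytes (-1.62 ± 0.35), and did not pass after the correction. Psmd12, of the proteasome lid, was at 46.1 and 62.5 CPM against 184 and 182 CPM (-1.75 ± 0.26, adjusted p = 0.00737) and passed in each of these settings. Without young library 1, 0 of the 3 respiratory, 0 of the 4 mitochondrial ribosomal and 1 of the 6 proteasome genes passed, and without young library 2 the counts were 2, 0 and 2. After the correction 2 of the 3, 2 of the 4 and 3 of the 6 passed.

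Among genes of ribosome assembly, translation and nutrient sensing, few passed. Rrs1, a ribosome assembly factor, was at 36.7 and 28.2 CPM in aged oocytes, against 0.864 and 0.468 CPM in young oocytes (log2 fold change 5.65 ± 0.50, edgeR adjusted p = 0.000584), in a list of 53 where Npm1, Brix1 and Heatr1 fell. Eef2k, the kinase that inhibits elongation factor 2, was at 123 and 76.6 CPM against 34.6 and 34.4 CPM (1.53 ± 0.31). With Eif2ak3, the stress kinase PERK, it was one of 2 that rose among 48 translation genes. In the mTOR list of 52 genes, Lamtor3, a subunit of the lysosomal Ragulator complex, was at 343 and 287 CPM in aged oocytes, against 737 and 646 CPM in young oocytes (-1.14 ± 0.22, adjusted p = 0.0158). Rraga, a Rag GTPase on the same complex, was at 408 and 407 CPM against 204 and 197 CPM (1.03 ± 0.21, adjusted p = 0.0206). Lamtor2 and Inpp4a also fell and Inpp4b rose. Of 54 autophagy and lysosome genes 6 rose, among them Pik3r4, Atg14 and Tfe3, and Atp6v1d and Tpp1 fell. Without young library 1, 2 of the 4 biogenesis, 0 of the 2 translation, 1 of the 5 mTOR and 1 of the 8 autophagy genes passed, and without young library 2 the counts were 1, 0, 2 and 2. After correction for GC content and length, 2, 2, 4 and 7 passed, and Npm1, Brix1 and Lamtor2 were among those that did not.

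In the list of 62 heat shock and unfolded protein genes 4 rose and 4 fell. Pdia6, a disulfide isomerase of the endoplasmic reticulum, was at 90.2 and 89.1 CPM in aged oocytes, against 495 and 462 CPM in young oocytes (log2 fold change -2.42 ± 0.22, edgeR adjusted p = 0.000701). Hspa5, the chaperone BiP, was at 35.9 and 82.8 CPM against 198 and 210.3 CPM (-1.78 ± 0.37, adjusted p = 0.0215). Both passed whichever library was left out. Hspa8 and Cct5 fell too, and Hsp90ab1, Hspb1, Eif2ak3 and Syvn1 rose. Of the 75-base words of Hspa8 and Hspb1, 67.0% and 53.6% were unique, which leaves their counts uncertain. Of these 8, 2 passed without young library 1, 2 without young library 2, and 7 without aged library 1 and after correction for GC content and length alike.

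Of 36 tested genes in the antioxidant and metallothionein list 10 passed (27.8%, beside 12.5% of all genes), 5 in each direction. Higher shares were found in the smaller lists of potassium channels (46.2% of 13), hypoxia response (30% of 10) and zinc and iron transport (28.6% of 14). Pxdn, Gsto2, G6pdx, Glrx and Txnip rose, and Mgst1, Mgst3, Gstp1, Nfe2l2 and Ftl1 fell. G6pdx, which makes NADPH in the pentose phosphate pathway, was at 335 and 283 CPM in aged oocytes, against 111 and 95.8 CPM in young oocytes (log2 fold change 1.58 ± 0.24, edgeR adjusted p = 0.00734). Nfe2l2, the master regulator of the antioxidant response, was at 7.50 and 12.9 CPM against 34.8 and 32.9 CPM (-1.72 ± 0.38, adjusted p = 0.0247). Mgst1, a microsomal glutathione transferase, had 0 counts in both aged libraries, against 9.72 and 2.46 CPM in young libraries, at least 13.5-fold lower. Of the 10, 3 passed without young library 1, 4 without young library 2 and 8 after correction for GC content and length.

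Mitochondrial shape and quality genes gave 5 that rose and 2 that fell among 35. Rhot1, a GTPase that carries mitochondria along microtubules, was at 868 and 924 CPM in aged oocytes, against 483 and 533 CPM in young oocytes (log2 fold change 0.82 ± 0.20, edgeR adjusted p = 0.0332). Gdap1, an outer membrane protein linked to fission, was at 486 and 514 CPM against 204 and 248 CPM (1.15 ± 0.22). Mtfr1l, a relative of Mtfr2, went the other way, at 8.03 and 8.54 CPM in aged oocytes, against 42.3 and 31.8 CPM in young oocytes (-2.15 ± 0.35). Rhot2 rose and Bnip3 fell. Mfn2 rose too, but did not pass with DESeq2, with limma-voom or when any 1 of the 4 libraries was left out. After correction for GC content and length Bnip3 had a log2 fold change of -0.31 in place of -0.90 and did not pass, and 5 of the 7 genes did. Both subunits of the mitochondrial pyruvate carrier fell: Mpc1 was at 13.1 and 9.00 CPM against 32.8 and 38.2 CPM (-1.69 ± 0.36), and Mpc2 at 5.36 and 6.92 CPM against 22.5 and 22.3 CPM (-1.86 ± 0.38). In that list of 49 genes of glycolysis, the TCA cycle and amino acid entry, Got1 fell too, and Gpt2 and Dlst rose. Of the 7 mitochondrial genes 1 passed without young library 1 and 2 without young library 2, and of the 5 metabolic genes 1 and 1. Mpc1 and Gpt2 did not pass after the correction.

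In the lipid list 5 of 40 tested genes rose and none fell. Fasn, the fatty acid synthase, was at 43.1 and 85.4 CPM in aged oocytes, against 2.59 and 6.20 CPM in young oocytes (log2 fold change 3.81 ± 0.51, edgeR adjusted p = 0.00455). Acsl6, an acyl-CoA synthetase, had 78 counts in the aged and 1 in the young libraries, 127-fold higher (22.2 to 5.1e+03 by counting error). Srebf1, the transcription factor that drives fatty acid synthesis genes, was at 106 and 24.0 CPM against 10.4 and 15.9 CPM (2.29 ± 0.62, adjusted p = 0.0458), and Hadha, of mitochondrial beta-oxidation, at 191 and 111 CPM against 66.5 and 67.0 CPM (1.17 ± 0.31). Pnpla3, Fasn and Acsl6 passed whichever library was left out, whereas Srebf1 and Hadha did not pass without aged library 1, without young library 1, without young library 2 or after correction for GC content and length (Srebf1 adjusted p of 0.0983 without aged library 1). Of 20 cholesterol genes 1 rose, Fdft1, which makes squalene, and 14 lay above 0, with a median of 0.57. That median was 0.23 without aged library 1 and 0.34 without aged library 2, and Fdft1 did not pass without young library 1 or without young library 2.

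Calcium genes, which carry the signal of fertilisation, lay below 0 in 17 of 24 cases (median -0.52), with 3 that fell and none that rose. Itpr2, a receptor for inositol trisphosphate, was at 279.8 and 315 CPM in aged oocytes, against 542 and 527 CPM in young oocytes (log2 fold change -0.84 ± 0.21), and Atp2a2, the pump that refills the calcium store, at 208 and 200.1 CPM against 343 and 463 CPM (-0.98 ± 0.24). The median was -0.31 without aged library 1, -0.35 without young library 2 and -0.53 after correction for GC content and length, and none of the 3 genes passed without young library 1 or without young library 2. Of 13 tested potassium channels, 3 rose and 3 fell. Kcnh1, a voltage-gated channel linked to the cell cycle, was at 40.2 and 54.2 CPM in aged oocytes, against 246 and 321 CPM in young oocytes (-2.59 ± 0.28, adjusted p = 0.00136), and with Kcng2 and Kcnk18 it passed whichever library was left out, while 4 of the 6 channels passed without aged library 1 and 5 after the correction. Zinc transporters were mixed, with Slc30a3 and Slc30a5 higher and Slc30a4 lower, and among the 4 genes called in the zinc and iron list 1 passed without each young library.

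Clock genes and oxygen-sensing genes passed in both directions. Per1, a repressor of the circadian clock, was at 61.1 and 27.2 CPM in aged oocytes, against 7.77 and 3.51 CPM in young oocytes (log2 fold change 3.01 ± 0.53, edgeR adjusted p = 0.0126). With Arntl2 and Bhlhe41, which fell, it made up the 3 genes that passed among 18 clock genes, of which 2 passed without young library 1 and 3 without young library 2. Hif3a, an inhibitory partner in the hypoxia response, was at 32.4 and 39.7 CPM against 2.16 and 2.81 CPM (3.82 ± 0.40, adjusted p = 0.0012). Hif1a, the main oxygen-regulated factor, was at 1335 and 834 CPM against 534 and 549.6 CPM (1.00 ± 0.25, adjusted p = 0.0378), and did not pass without aged library 1 or either young library. In nuclear transport 5 of 50 genes rose, among them Tnpo2 and Nup62, and Nup37 and Ran fell. In splicing, Cdc5l, Prpf8 and Srsf4 rose and Snrpa1, Bcas2 and Snrpe fell among 59. Of the 7 transport genes 2 passed without each young library, and of the 6 splicing genes 1 without young library 1 and 2 without young library 2. After correction for GC content and length 4 of the 7 transport genes passed, with Nup37 at a log2 fold change of -0.22 in place of -0.92. Of the splicing genes 4 of 6 passed after it, and Snrpe turned in direction, to 0.15 in place of -0.997 (edgeR adjusted p = 0.694). In purine and pyrimidine metabolism, Pnp2, a purine nucleoside phosphorylase, rose (5.43 ± 0.66), and Adsl and Samhd1 fell, among 29 tested, and 1 of these 3 passed without each young library.

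**Figure D5:**
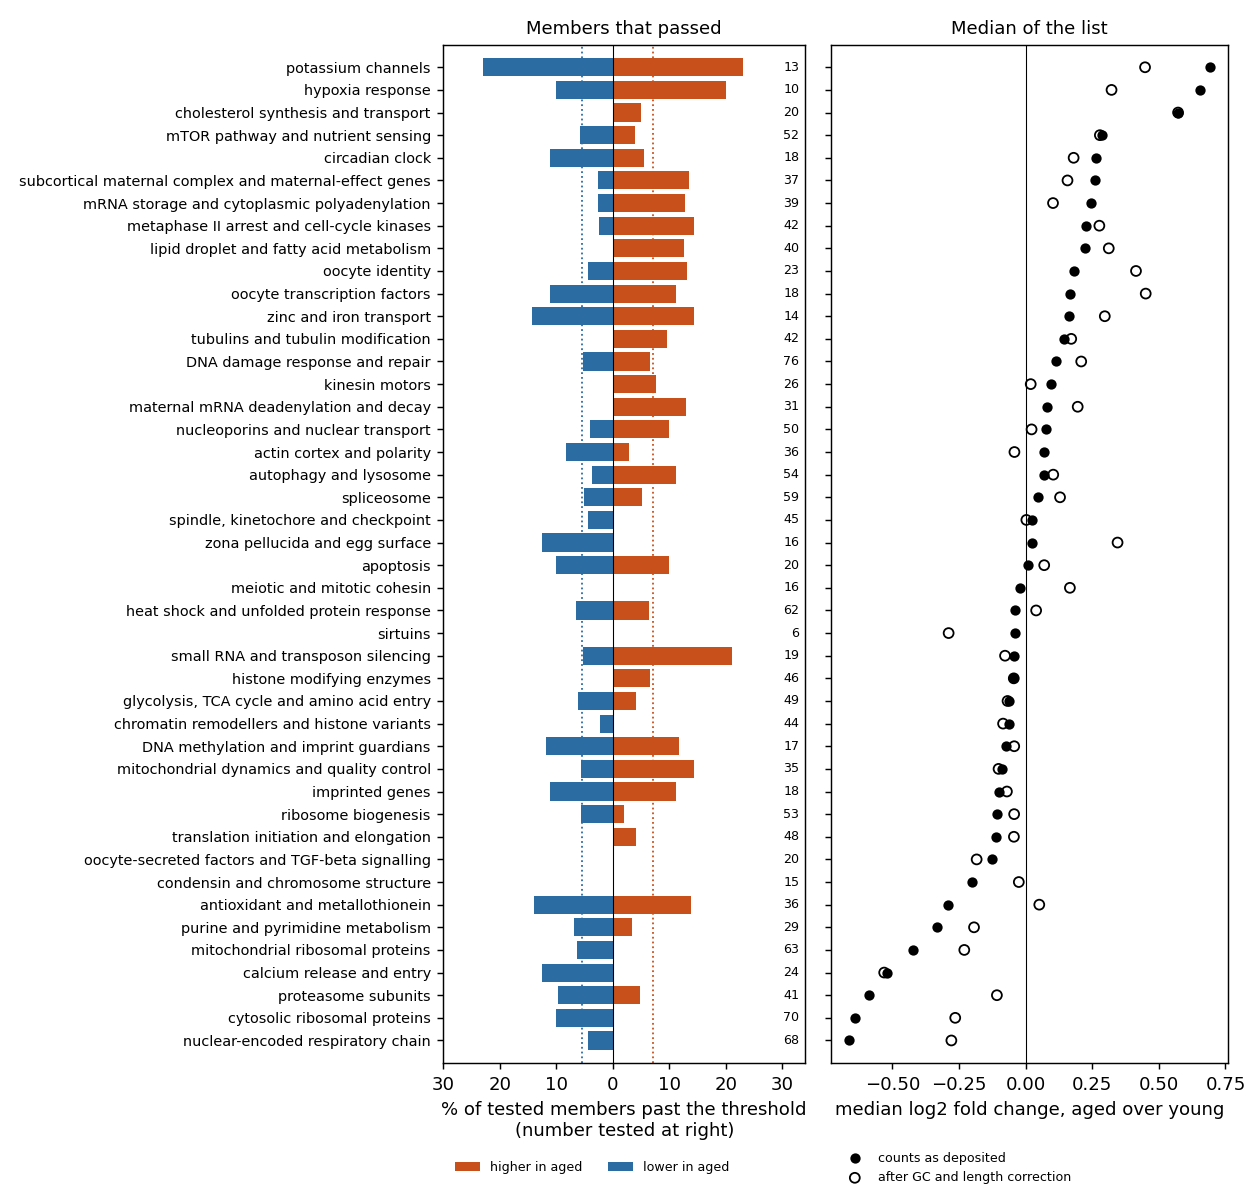
Functional lists with at least 5 tested genes, ordered by median log2 fold change. The left panel gives the share of tested members, in percent, that passed as higher (orange, right of 0) or lower (blue, left of 0) in aged oocytes, with dotted lines at the 7.11% and 5.4% of all genes, and the right panel the median log2 fold change of the list from the deposited counts (filled) and after correction for GC content and length (open). The respiratory chain, cytosolic ribosomal and proteasome lists have the lowest medians, and these lie closer to 0 after the correction.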

How the data were processed

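The authors deposited whole-number read counts per gene for each library; per the submitters' processing notes the tools were STAR and HTSeq and the build mm10, with no version or annotation named. Whether strand was used is not stated, so a gene cannot be told apart from one that overlaps it, antisense ones included. Shares of unique 75-base words were also low for Ftl1 (48.7%), Srsf4 (62.2%), Diablo (64.6%) and Bnip3 (65.6%), so their counts are uncertain. Assigned totals ran from 3912163 to 8334873 counts per library, and 3 counts correspond to 0.351 to 0.803 CPM. The 5 summary rows of each table of 24491 genes were removed. Genes passing filterByExpr were normalised by TMM and tested with edgeR 4.0.16 (R 4.3.3) quasi-likelihood F-tests, aged over young, on the 4 libraries alone, with Benjamini-Hochberg adjustment over all 9409 genes at 0.05. CPM are scaled by TMM library sizes and are not corrected for length, so levels are compared within a gene only. Fold changes carry edgeR's prior count, and genes with 3 counts or fewer in a group are given by counts, with 95% intervals that cover counting error only, or against a floor of 3 counts over the group. Values after ± are approximate SEs, back-calculated as the absolute log2 fold change divided by the square root of edgeR's F statistic. DESeq2 1.42.0, limma 3.58.1 (voom) and mgcv, which fitted GC content and length of the longest annotated transcript, served as alternatives. The fit was tested on simulated data. With 2 against 2 libraries an exact permutation test cannot give a p below 0.333, so no single-gene permutation test was used.

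The members and lists were chosen with earlier results of these data known. Genes named were, among those past the threshold without overlap, the 12 largest rises and falls by fold at a mean of at least 20 CPM, the 8 largest rises and falls of mean CPM, up to 6 called members of each list by p, up to 2 members of lists with none called, and Pnpla3, Cdc5l, Mtfr2, Arid5b, Dph6 and Tox3. Other list members named, such as Gpr3, Glrx, Txnip and Mfn2, were chosen after their values were seen. A few further genes enter the counts but are not reported here. Annotation is GENCODE M21 (GRCm38, the same assembly as mm10), and promoters are RefSeq GRCm38.p6. Promoters matched 77.9% of tested genes, under the 80% needed to compare gene sets, so no such comparison was made.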

Additional observations from a re-analysis of the deposited data

How the results depend on the processing

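Against 1177 genes in the reported test, 2074 passed without a filter on low counts, 195 against a null of a 2-fold change, and 27 in a fit of all 7 oocyte libraries, where the rapamycin libraries share the estimate of spread. With 6 oocyte libraries, leaving out rapamycin library 1, 1168 passed, 1052 of them shared. Leaving out 1 library gave between 263 and 3554: 1901 without aged library 1, 3554 without aged library 2, 263 without young library 1 and 306 without young library 2; the cause was not tested, and a lone library was assumed to vary like the other group. DESeq2 gave 1484 genes (1122 shared) and limma-voom 1217 (1108 shared). Among named genes that passed the reported test, the only change of direction was Snrpe. It was at 0.15 (edgeR adjusted p = 0.694) after correction for GC content and length, against -0.997 without it. That correction was an alternative chosen after seeing the data. Without aged library 1, a further 1 of the named genes, which had not passed, also changed direction.

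Same-numbered libraries did not deviate together (correlation over genes -0.06). This value cannot show whether a number marks a shared animal or day, and the titles do not say. With the replicate number as a block, 1702 genes passed, 1174 of them shared.

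Pools of about 10 oocytes and 2 libraries a group limit what genes of a few CPM can show.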
